A study of Homo sapiens with 6 samples.

Results

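The cytosolic ribosome is the particle that reads mRNA and joins amino acids, and each of its protein chains is encoded by its own nuclear gene. The genes described here are the human genes for these proteins: every gene whose symbol begins with RPL or RPS, followed by a number with or without a final A, together with RPLP0, RPLP1, RPLP2, RPSA and RPS4X. They were chosen by name and by having a line in all 3 control library tables, with no measured value in the rule. The rule found 77 of the 27259 genes in the table of the study, of which 31 encode proteins of the small (40S) subunit and 46 proteins of the large (60S) subunit.

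U87MG is an established human glioblastoma cell line. Total RNA was sequenced from U87MG exposed for 24 h to a control lentivirus (U87MG-control, 3 libraries) or, for the same time, to a lentivirus that overexpresses LMO2 (U87MG-LMO2, 3 libraries). LMO2 is a LIM-only adaptor protein of transcription factor complexes, and the comparison asks which transcripts differ when it is overexpressed. The model is 1 cell line at 1 time after infection, and since nothing states that replicates were separate cultures, p-values measure only the spread between these libraries, which may be technical.

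Ribosomal protein genes are among the most strongly transcribed genes of growing cells, and their products are needed in equal numbers, because nearly every protein enters each ribosome as a single copy. Most of their mRNAs begin with a C followed by an unbroken stretch of pyrimidines, the terminal oligopyrimidine (TOP) tract, through which the mTORC1 and LARP1 pathway sets how strongly they are translated and how stable they are. Surplus ribosomal proteins are degraded, and the 5S particle made of RPL5, RPL11 and 5S rRNA binds MDM2 when ribosome assembly fails.

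The start of the transcript is the sequence feature that these genes share. RefSeq start windows of GRCh38.p14 matched 62 of the 77 genes by gene ID. At least 1 annotated start of 46 of the 62 genes (74.2%) was a C inside a run of 5 or more C or T, counted from the start, against 5.14% of all 27305 genes with a window. The median run of these genes was 8 bases and the longest, in RPL39, 19 bases. Windows are shown for 4 of the 5 genes that passed the test (the 5th, RPL30, has no window). RPLP1, the gene with the highest fold change, is also shown. RPL31, RPS25 and RPL13 (1 of its listed starts) stand near the ends of the range, and RPL41 had the highest mean FPKM. RPS29, also among the highest log2 fold changes, has a listed start without such a run and is not shown. Each window holds 15 bases before and 15 from the annotated start, 5′ to 3′ on the gene's strand, with the pyrimidine run in capitals.
RPL26, chr17:8383179-8383208, minus strand: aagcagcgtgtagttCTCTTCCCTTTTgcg
RPL29, chr3:51995881-51995910, minus strand: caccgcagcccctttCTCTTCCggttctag
RPL36A, chrX:101390996-101391025, plus strand: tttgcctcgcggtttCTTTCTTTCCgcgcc
RPL17, chr18:49492451-49492480, minus strand: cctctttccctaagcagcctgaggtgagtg
RPLP1, chr15:69452803-69452832, plus strand: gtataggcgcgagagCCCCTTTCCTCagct
RPL31, chr2:101002274-101002303, plus strand: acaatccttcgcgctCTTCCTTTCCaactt
RPS25, chr11:119018329-119018358, minus strand: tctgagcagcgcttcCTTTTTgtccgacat
RPL13, chr16:89560667-89560696, plus strand: ttgcggggccgcttcCTTTCCgctcggctg
RPL41, chr12:56116618-56116647, plus strand: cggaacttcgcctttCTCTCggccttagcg

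RPL26, RPL29 and RPL36A, which passed the test as lower in U87MG-LMO2, carried such a run, and so did RPLP1, the gene with the highest log2 fold change. At the RPL17 start in the table no pyrimidine run was found, which says only that these letters are not at this start. The other sequence features searched were counted on both strands of the windows from 250 bases before to 50 after each start (77 windows of the ribosomal protein genes and 35116 in all). CGGAAG, a core motif of ETS family factors, occurred in 59.7% of the windows of the ribosomal protein genes and in 19.5% of all windows. GGGCGG, the GC box, occurred in 54.5% against 45.0%, and TATAAA, the TATA box, in 6.49% against 11.5%. AAGATGG, a core of the YY1 motif, occurred in 10.4% against 5.84%, and CACGTG, the E-box bound by MYC, in 5.19% against 7.26%. TTCNNNGAA, the STAT motif, occurred in 2.60% against 7.66%.

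The libraries held 11428432, 13537284 and 13086989 expected counts in U87MG-control and 16142024, 14630627 and 17892955 in U87MG-LMO2. LMO2, the overexpressed gene, was at 0.607, 0.803 and 0.378 CPM (counts scaled to a common total per library) in U87MG-control and at 333, 307 and 878 CPM in U87MG-LMO2 (log2 fold change 9.70, SE 0.60, adjusted p = 4.13e-04, edgeR), so each library followed its label, although vector and endogenous transcripts are counted together. VIM, CD44, TNC, FN1 and NES, genes known to be expressed in glioma cells, were detected in every library, whereas OLIG2, a glial lineage factor, stayed between 0.409 and 1.06 CPM, and SOX2 and S100B did not pass the filter on low counts. U87MG-LMO2 replicate 3 was scaled by a factor of 0.929 and the other libraries by factors between 1.01 and 1.02.

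All 77 genes passed the filter on low counts and were tested, and the lowest count of any of them in any library was 257 (RPL22). In FPKM, which corrects for both transcript length and library size, the median gene was at 610, 567 and 573 in the U87MG-control libraries and at 473, 527 and 468 in the U87MG-LMO2 libraries. Between 32 and 41 of the 77 genes were among the 100 genes with the highest FPKM in each library. The level varied widely within the family. RPL41, whose product is the shortest ribosomal protein, had the highest mean FPKM (3954 ± 179 in U87MG-control and 3196 ± 287 in U87MG-LMO2, SD, n = 3). It was followed in mean FPKM over the 6 libraries by RPS2, at the mRNA entry of the 40S subunit, with 2474 ± 229 and 2947 ± 248, by RPL8, near the peptidyl transferase centre, with 2709 ± 108 and 2362 ± 120, and by RPS15, a protein of the 40S head, with 2576 ± 71.8 and 2405 ± 574. RPS2, RPL8 and RPS15 overlapped in FPKM between these genes, so their order lies within the spread, and in U87MG-LMO2 replicate 3 the FPKM of RPS2 (3227) was above that of RPL41 (2880.3). RPL22, a protein without which ribosomes still form, had the lowest level with 13.98 ± 2.31 and 11.6 ± 4.25 FPKM, below RPS23, a protein of the decoding centre, with 76.2 ± 5.71 and 68.3 ± 16.5, and RPL34, with 137 ± 19.3 and 103 ± 25.5. The table gives RPL22 and RPS23 mean lengths of 2099 and 3325 bases, against 479.9 bases for RPL41, and a longer length lowers the FPKM of a gene at equal counts.

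As a family, the ribosomal protein genes took a smaller share of the counts in U87MG-LMO2. Of the expected counts they held 4.51%, 4.49% and 4.51% in U87MG-control and 4.03%, 4.27% and 4.01% in U87MG-LMO2. The groups did not overlap, with means of 4.50% ± 0.00815 and 4.10% ± 0.145 (SD, n = 3). A 2-sided exact permutation test of 3 against 3 libraries cannot give a p below 0.10, and no p is attached to this sum. Without the 10 most abundant other genes in the total, the shares were 4.83% ± 0.0119 and 4.44% ± 0.140. As a share of summed FPKM, they were 11.3% ± 0.137 and 10.8% ± 0.350. In bulk RNA, fewer cells of a type and less RNA per cell cannot be told apart.

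The share was lower for both subunits. The 60S genes held 2.94%, 2.88% and 2.89% of the counts in U87MG-control and 2.56%, 2.72% and 2.51% in U87MG-LMO2. The 40S genes held 1.57%, 1.61% and 1.62% against 1.48%, 1.55% and 1.49%. For both subunits the control libraries were all higher. The ratio of 60S to 40S counts was 1.88, 1.79 and 1.78 in U87MG-control and 1.74, 1.75 and 1.68 in U87MG-LMO2, and these groups did not overlap either. A ratio of sums weighs abundant genes most. RPS2, the 40S gene with the most counts, was at 2117, 2536 and 2284 CPM in U87MG-control and at 2558, 2690 and 3290 CPM in U87MG-LMO2. The ratio without RPS2 was not computed, and the part of this gene in the separation was not tested.

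**Figure D1:**
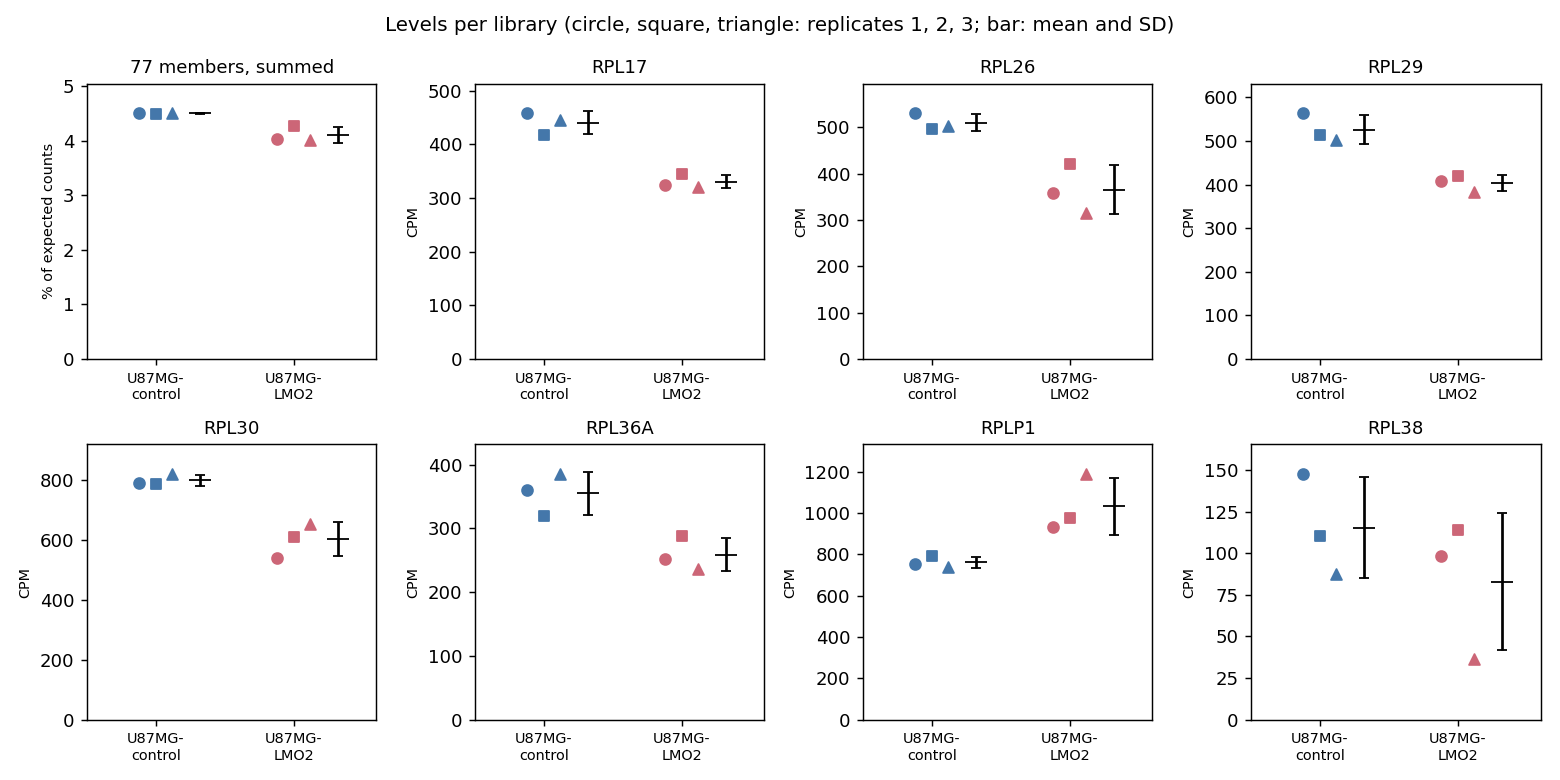
Summed share of the 77 ribosomal protein genes (% of expected counts) and CPM of 7 of them in each library, with circles, squares and triangles for replicates 1, 2 and 3 of U87MG-control (blue) and U87MG-LMO2 (red) and bars for the mean and SD. RPL17, RPL26, RPL29, RPL30 and RPL36A lay lower in every U87MG-LMO2 library, RPLP1 lay higher than in every U87MG-control library, and RPL38 overlapped.

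Gene by gene, 5 of the 77 (6.49%) passed the edgeR quasi-likelihood test as lower in U87MG-LMO2, at an adjusted p under 0.05 over the 16092 genes tested, and 0 passed as higher. The background was 2.75% of all tested genes lower and 4.72% higher. At an unadjusted p under 0.05, 24 of the 77 (31.2%) were lower, against 11.9% of all genes, and 3 (3.90%) were higher, against 13.8%. DESeq2 called 11 lower, against 4.1% of all genes, and 1 higher, RPLP1, against 6.18%. In 29 of the 77 genes (37.7%) all U87MG-LMO2 libraries lay below all U87MG-control libraries, against 16.6% of all genes, and in 5 (RPL13, RPL14, RPLP1, RPS2 and RPS29; 6.49%) all lay above, against 17.5%. The other 43 genes overlapped between the groups.

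The log2 fold changes were small. They ran from -0.55 to 0.44 with a median of -0.15, against -0.01 over all genes tested, and 56 of the 77 (72.7%) were below 0, against 51.1% of all genes. The standard error was at most 0.15 for 58 of the 77 genes, and 10 genes had an adjusted p between 0.05 and 0.1 (edgeR), 9 of them lower and the 10th RPLP1.

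**Figure D2:**
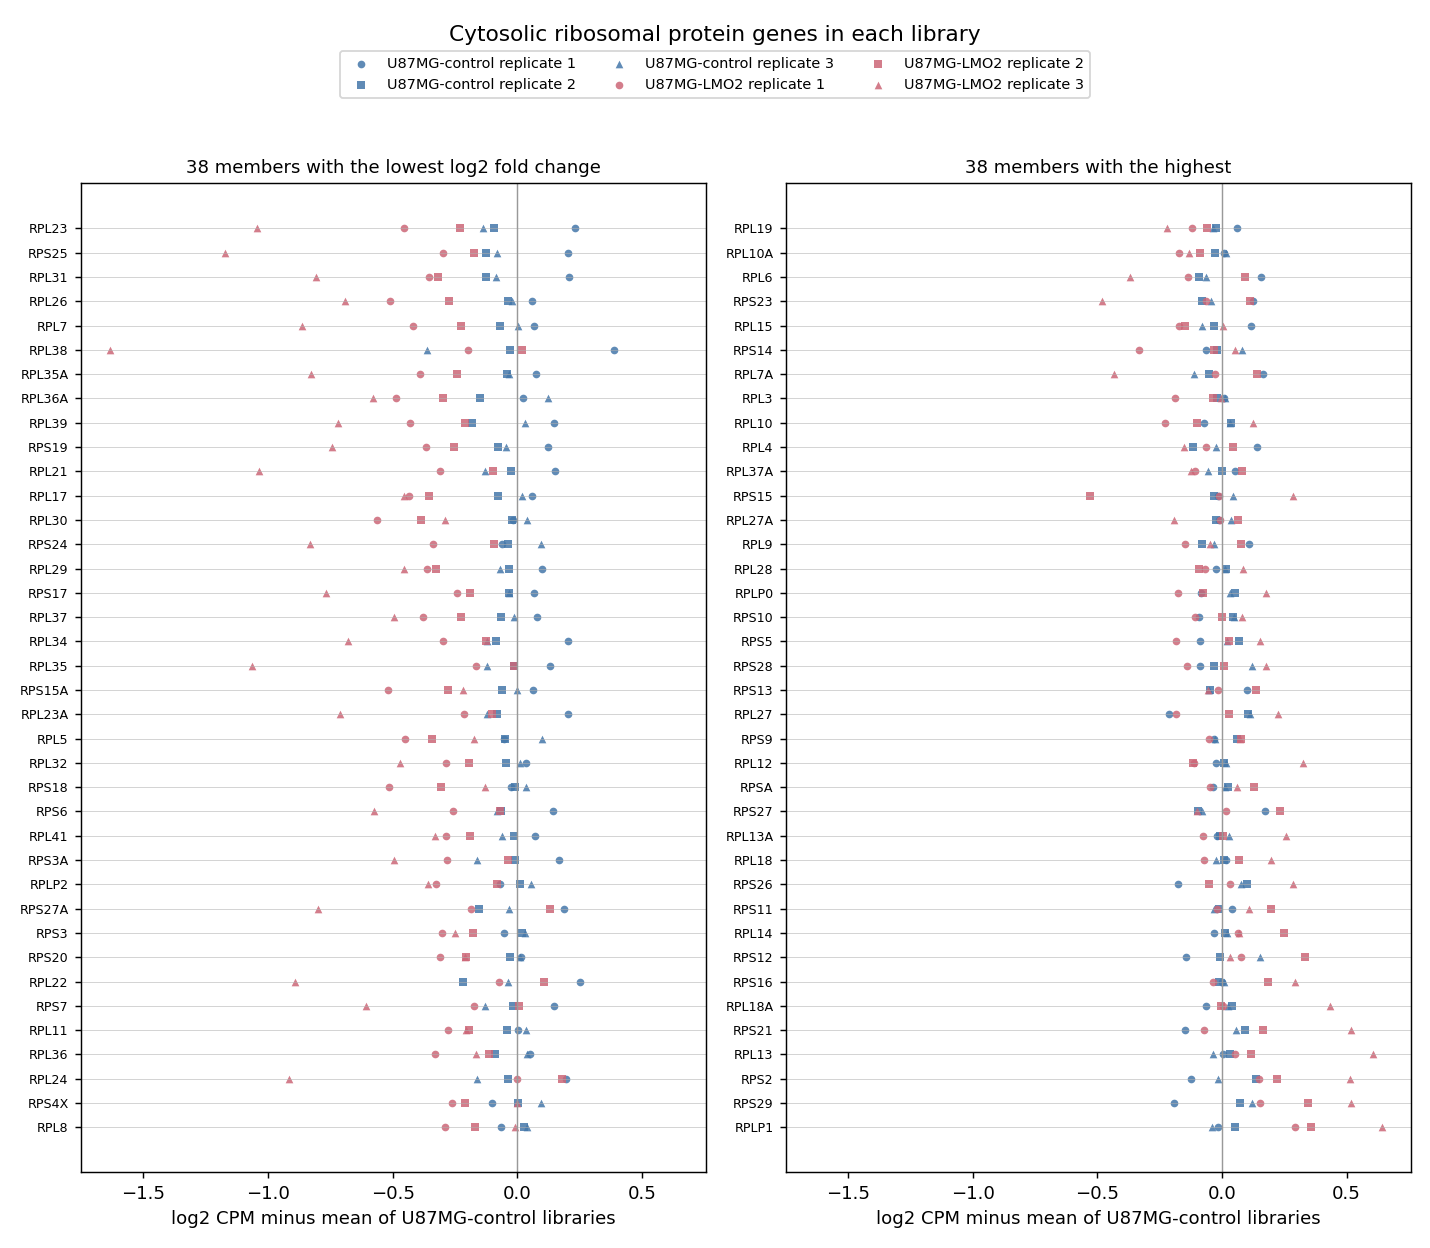
Log2 CPM of 76 of the 77 ribosomal protein genes minus the mean of the U87MG-control libraries, 1 line per gene in the order of the log2 fold change and 1 symbol per library. The U87MG-LMO2 symbols (red) lie mostly to the left of the U87MG-control symbols (blue) in the left panel. U87MG-LMO2 replicate 3 (red triangles) has the widest range, with an SD of 0.470 over the 77 genes, against 0.597 over all genes tested.

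The 5 genes that fell all encode 60S proteins. RPL17 lines the exit tunnel of the growing protein chain. It was at 457.9, 416.5 and 445.0 CPM in U87MG-control and at 324.9, 344.2 and 321.0 CPM in U87MG-LMO2, without overlap (log2 fold change -0.41, SE 0.09, edgeR adjusted p = 0.0343). RPL26, which also sits at the tunnel exit, was at 530, 496 and 502 CPM against 358, 421 and 316 CPM (log2 fold change -0.48, SE 0.12, edgeR adjusted p = 0.0460). The lowest control library of either gene stood above the highest LMO2 library.

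RPL30, a protein of a bridge between the subunits, was at 787.5, 786.5 and 819.0 CPM against 540.3, 609.9 and 652.2 CPM (log2 fold change -0.41, SE 0.10, edgeR adjusted p = 0.0455). RPL29, a small basic protein found only in eukaryotes, was at 564, 513 and 501 CPM against 409, 419 and 383 CPM (log2 fold change -0.38, SE 0.10, edgeR adjusted p = 0.0471). RPL36A, near the exit site of the tRNA, was at 360, 319 and 386 CPM against 253, 288 and 237 CPM (log2 fold change -0.45, SE 0.12, edgeR adjusted p = 0.0484). The groups of these genes did not overlap, and RPL36A had the smallest gap between its lowest control and its highest LMO2 library. RPL36A-HNRNPH2, a readthrough gene that holds the RPL36A sequence, was at 70.1, 71.4 and 54.7 CPM against 44.1, 56.0 and 51.0 CPM, with overlap, and the expected counts of RPL36A, RPL17 and RPL29 were not whole numbers in every library, so the split of reads between these genes and other genes or copies is uncertain.

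All 5 calls were close to the threshold. Each was lost when any 1 U87MG-control library or U87MG-LMO2 replicate 1 was left out (0 of the 77 lower in each of these fits). Over all genes the lower calls also fell in these fits, to 0.279%, 0.339% and 0.255% without U87MG-control replicates 1, 2 and 3 and to 0.294% without U87MG-LMO2 replicate 1, so a count of 0 is near the background. Without U87MG-LMO2 replicate 2, RPL26, RPL36A and RPL7 were called, against 1.86% of all genes. Over the fits that left out 1 library, the log2 fold change ran from -0.45 to -0.39 for RPL17, from -0.60 to -0.39 for RPL26, from -0.47 to -0.33 for RPL30, from -0.41 to -0.33 for RPL29 and from -0.54 to -0.39 for RPL36A. Without U87MG-LMO2 replicate 3, 14 genes were called lower, against 6.72% of all genes, and 1 higher, RPLP1, against 7.97%.

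The 14 genes included the 5 above and RPL5, RPL7, RPL35A, RPL37, RPS15A, RPS18, RPS19 and RPS20. RPLP1, which pairs with RPLP2 in the stalk that recruits elongation factors, was at 753.8, 790.5 and 741.0 CPM in U87MG-control and at 932.1, 976.4 and 1189 CPM in U87MG-LMO2, with no overlap (log2 fold change 0.44, SE 0.11, edgeR adjusted p = 0.0524). Without U87MG-LMO2 replicate 3 its log2 fold change was 0.33 (edgeR adjusted p = 0.0153). The other stalk proteins stood elsewhere. RPLP2 was at 361, 381 and 393 CPM against 302, 358 and 296 CPM (log2 fold change -0.25, edgeR adjusted p = 0.181). RPLP0, which anchors both to the ribosome, was at 2014, 2215 and 2183 CPM against 1889, 2026 and 2417 CPM (log2 fold change -0.02, edgeR adjusted p = 0.934). The 3 stalk genes thus covered most of the range of the family, and whether they differ from each other was not tested.

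The other genes with the highest log2 fold changes were RPS29, a zinc-binding protein of the 40S head, RPS2 and RPL13. RPS29 was at 34.3, 41.3 and 42.7 CPM against 43.7, 49.8 and 56.1 CPM (log2 fold change 0.34, edgeR adjusted p = 0.152). RPS2 was at 2117, 2536 and 2284 CPM against 2558, 2690 and 3290 CPM (0.30, edgeR adjusted p = 0.172). RPL13 was at 898, 918 and 875 CPM against 931, 972 and 1365 CPM (0.28, edgeR adjusted p = 0.270). In all of them replicate 3 was the highest U87MG-LMO2 library, and the log2 fold change without it was 0.24, 0.18 and 0.09.

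At the other end, 3 genes had lower log2 fold changes than any called gene but larger standard errors, and did not pass the test. RPL23, which faces the small subunit and binds MDM2, was at 481, 384 and 372 CPM against 299, 349 and 199 CPM (log2 fold change -0.55, SE 0.20, edgeR adjusted p = 0.128). RPS25, a protein that internal ribosome entry sites depend on, was at 129, 103 and 106 CPM against 91.1, 99.5 and 49.8 CPM (-0.49, SE 0.23, edgeR adjusted p = 0.222). RPL31, at the rim of the exit tunnel, was at 185, 147 and 151 CPM against 125, 129 and 91.6 CPM (-0.48, SE 0.15, edgeR adjusted p = 0.0895). None of these genes overlapped between the groups, and replicate 3 was the lowest U87MG-LMO2 library in each.

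**Figure D3:**
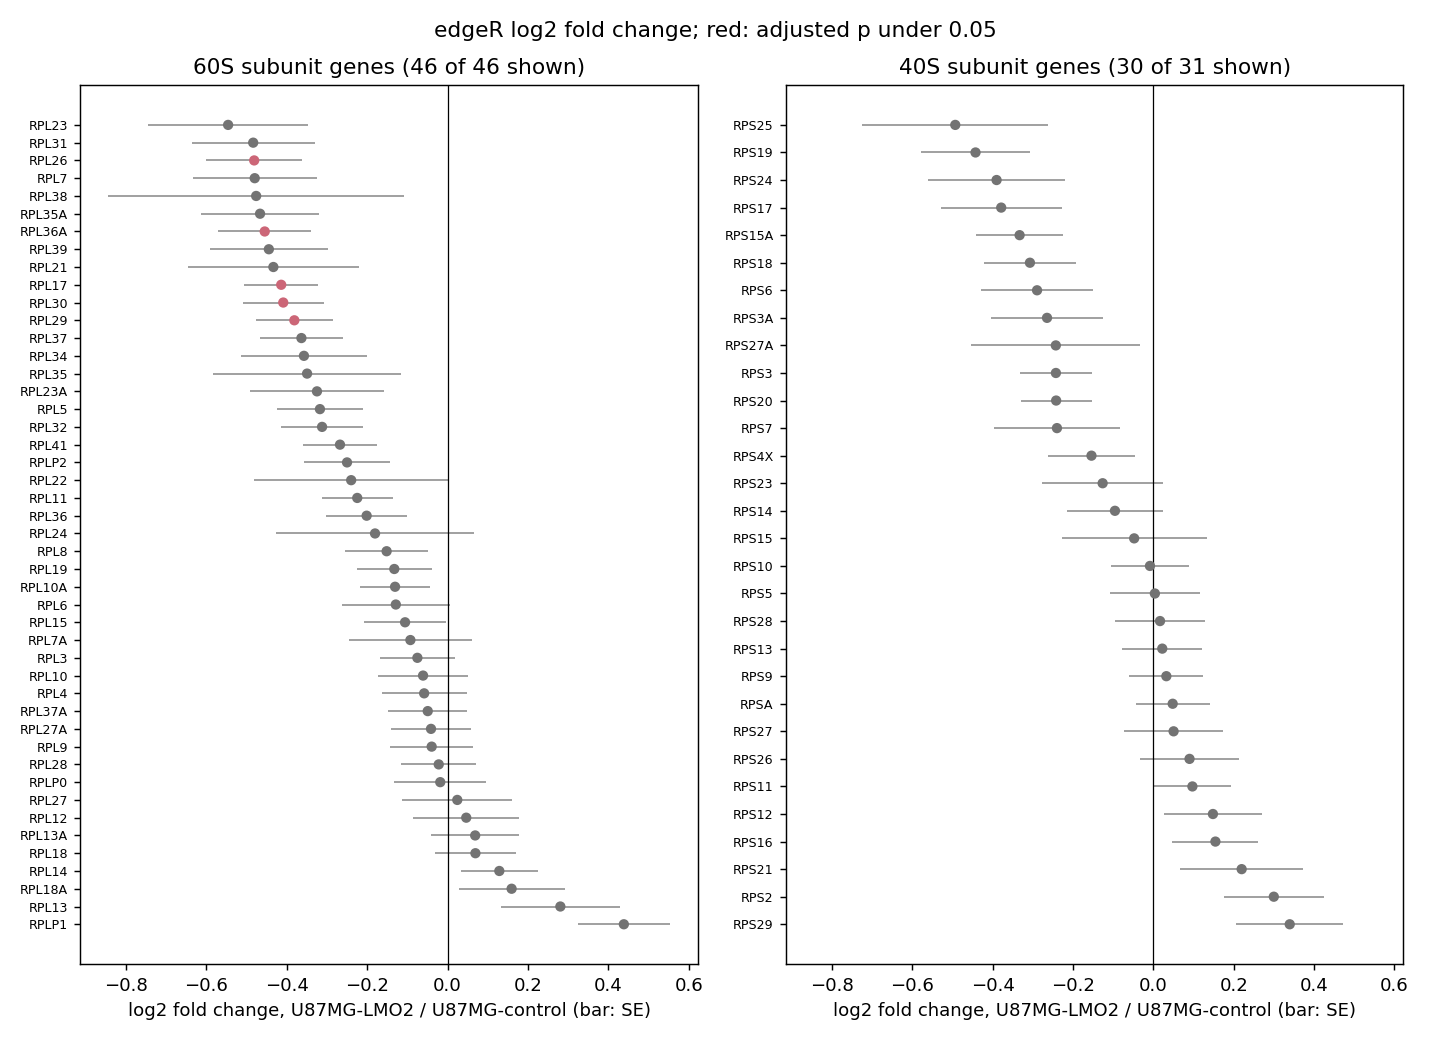
Log2 fold change of U87MG-LMO2 over U87MG-control for the 46 genes of the 60S subunit and 30 of the 31 genes of the 40S subunit, with bars for the SE and red points for an adjusted p under 0.05. The 5 red points are all 60S genes, and the median was -0.19 over all 60S and -0.10 over all 40S genes.

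By subunit, 38 of the 46 60S genes and 18 of the 31 40S genes had a log2 fold change below 0, with medians of -0.19 and -0.10. Of the 40S genes edgeR called 0 in either direction. At an unadjusted p under 0.05 it had 8 (25.8%) lower and 2 (6.45%) higher, against 11.9% and 13.8% of all genes. DESeq2 called 2 of the 31 lower, RPS19 among them, a share near its 4.1% of all genes. RPS19, the gene most often mutated in Diamond-Blackfan anaemia, was at 433.1, 376.5 and 385.0 CPM against 308.4, 333.1 and 237.7 CPM (log2 fold change -0.44, edgeR adjusted p = 0.0851), without overlap. Whether the subunits differ was not tested.

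Neither protein of the 5S particle passed the test. RPL5 was at 311, 312 and 346 CPM against 237, 255 and 287 CPM (log2 fold change -0.32, SE 0.11, edgeR adjusted p = 0.105). RPL11 was at 638.2, 620.0 and 653.8 CPM against 525.8, 557.7 and 552.7 CPM (-0.22, SE 0.09, edgeR adjusted p = 0.151). Neither overlapped between the groups, and RPL5 was called without U87MG-LMO2 replicate 3 (edgeR adjusted p = 0.0145).

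The remaining genes named for their roles showed no call. RPL41 was at 1858, 1754 and 1698 CPM against 1453, 1552 and 1406 CPM, without overlap (log2 fold change -0.27, edgeR adjusted p = 0.114). RPS6, the target of the S6 kinases, was at 489, 423 and 418 CPM against 370, 421 and 297 CPM (-0.29, edgeR adjusted p = 0.231). RPS27A, made as a fusion with ubiquitin, was at 209, 166 and 180 CPM against 162, 201 and 106 CPM (-0.24, edgeR adjusted p = 0.504). Both RPS6 and RPS27A overlapped between the groups. RPS4X (-0.15), RPL8 (-0.15), RPL3 at the peptidyl transferase centre (-0.08) and RPS15 (-0.05) had small log2 fold changes, as did RPSA, also known as the laminin receptor (0.05), and RPL13A, which silences translation in the interferon response (0.07). All of these overlapped between the groups, with edgeR adjusted p values from 0.389 for RPL8 to 0.892 for RPS15.

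The U87MG-LMO2 libraries were less alike in these genes than the U87MG-control libraries. The SD of log2 CPM within a group had a median over the genes of 0.0762 in U87MG-control and 0.174 in U87MG-LMO2, against 0.141 and 0.212 over all genes tested, so the family had a lower median SD than all genes in both groups. The SD was larger in U87MG-LMO2 for 73 of the 77 genes (94.8%), against 64.7% of all genes. Relative to the control mean, the median gene was at 0.03, -0.03 and 0.00 on the log2 scale in the U87MG-control libraries and at -0.18, -0.07 and -0.19 in the U87MG-LMO2 libraries. All 3 U87MG-LMO2 libraries were thus below the controls in the median gene, with replicate 2 closest to them.

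The genes did not move together in U87MG-LMO2 replicate 3. Its difference from the mean of replicates 1 and 2 ran from -1.54 to 0.56 on the log2 scale, with 23 genes below -0.3 and 9 above 0.3. The share of all genes past these limits was not computed. Relative to the control mean, replicate 3 had an SD of 0.47 over the family and a wider 0.60 over all genes tested. Replicate 3 was the library farthest from the group median for 42 of the 77 genes (54.5%), near the 55.1% of all genes. The widest spread was that of RPL38, known for its part in translating Hox mRNAs, at 148, 110 and 87.8 CPM in U87MG-control and 98.3, 114 and 36.2 CPM in U87MG-LMO2 (log2 fold change -0.48, SE 0.37, edgeR adjusted p = 0.449). RPL24, a protein between the subunits, was at 143, 121 and 111 CPM against 125, 141 and 66.0 CPM (-0.18, SE 0.25), and RPL22 at 34.4, 24.8 and 28.2 CPM against 27.4, 31.1 and 15.5 CPM (-0.24, SE 0.24). In RPL38, RPL24 and RPL22 the groups overlapped, and without replicate 3 the log2 fold changes were -0.12, 0.09 and 0.01. RPS15 differed from these genes, with 1275, 1260 and 1330 CPM against 1278, 891 and 1570 CPM. Its lowest U87MG-LMO2 library was replicate 2 and its highest was replicate 3. The log2 fold change of RPS15 was 0.14 without replicate 2 and -0.25 without replicate 3.

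**Figure D4:**
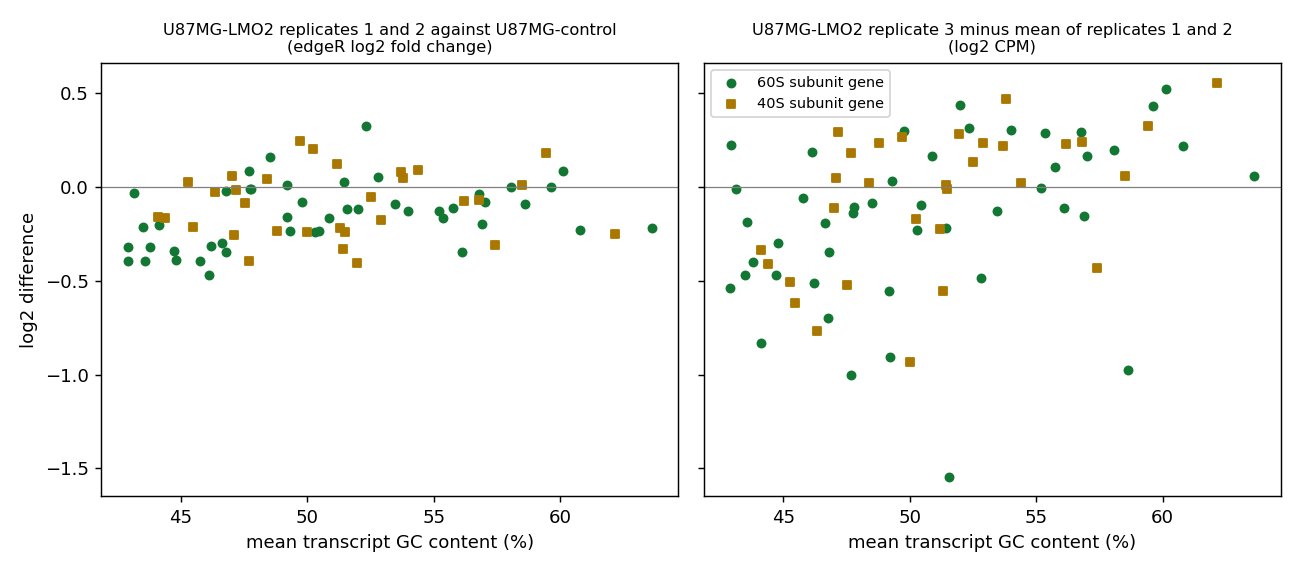
Log2 difference of the 77 ribosomal protein genes against the mean GC content (%) of their transcripts, for U87MG-LMO2 replicates 1 and 2 against U87MG-control (left) and for U87MG-LMO2 replicate 3 minus the mean of replicates 1 and 2 (right), with green circles for 60S and ochre squares for 40S genes. Pearson's r was 0.42 in the right panel and 0.26 in the left.

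GC content moved with these differences, and its part in them was not tested beyond the correction given here. Across the 77 genes, which share the same 6 libraries, the log2 fold change was higher at higher mean transcript GC content (Pearson's r = 0.45, Spearman's rho = 0.49), and the correlation was weaker without U87MG-LMO2 replicate 3 (r = 0.26, rho = 0.30). The difference of replicate 3 from replicates 1 and 2 had r = 0.42 and rho = 0.50, and that of U87MG-control replicate 1 from the other control libraries had r = -0.34 and rho = -0.41. Both library differences also moved with log2 mean FPKM (r = 0.48 and rho = 0.48 for replicate 3, r = -0.46 and rho = -0.49 for U87MG-control replicate 1). The log2 fold change had r = 0.215 with log2 mean FPKM, and r = -0.06 without replicate 3. The part of expression level in these differences was not tested. In the 25 genes with the lowest GC content (42.9% to 47.7%) the median log2 fold change was -0.36, in the 27 genes between -0.11, and in the 25 genes with the highest (52.9% to 63.6%) -0.02. Without replicate 3 these medians were -0.22, -0.12 and -0.09.

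With the GC trend of each library removed, limma called 3 genes lower, RPL26 and RPL29 among them, against 2.55% of all genes, and the median log2 fold change over the family was -0.17. The log2 fold change was then -0.32 for RPL17 (limma adjusted p = 0.0506), -0.31 for RPL36A (0.0851) and -0.32 for RPL30 (0.108). Without the correction these values were -0.41, -0.45 and -0.41. RPL26 was at -0.37 (limma adjusted p = 0.0487), against -0.48 without the correction. RPL29 moved the other way, from -0.38 to -0.48 (limma adjusted p = 0.0316). Over the family, 60 genes were below 0 after the correction, against 57 in limma with no trend removed. Transcript length showed little relation to the log2 fold change (r = 0.11, rho = 0.09).

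The start sequence and the change can be set side by side. The 46 genes with a TOP-type start had a median log2 fold change of -0.19, with 33 below 0 and 3 called lower. The 16 genes whose listed starts lack the run had a median of -0.09, with 12 below 0 and 1 called, and the 15 genes without a window had a median of -0.33, with 11 below 0 and 1 called. Over all genes tested, 51.1% were below 0 and 2.75% were called lower. The shares below 0 and called lower were similar in all of these sets, and whether their medians differ was not tested. Several genes have more than 1 listed start, and which start these cells used was not measured.

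**Figure D5:**
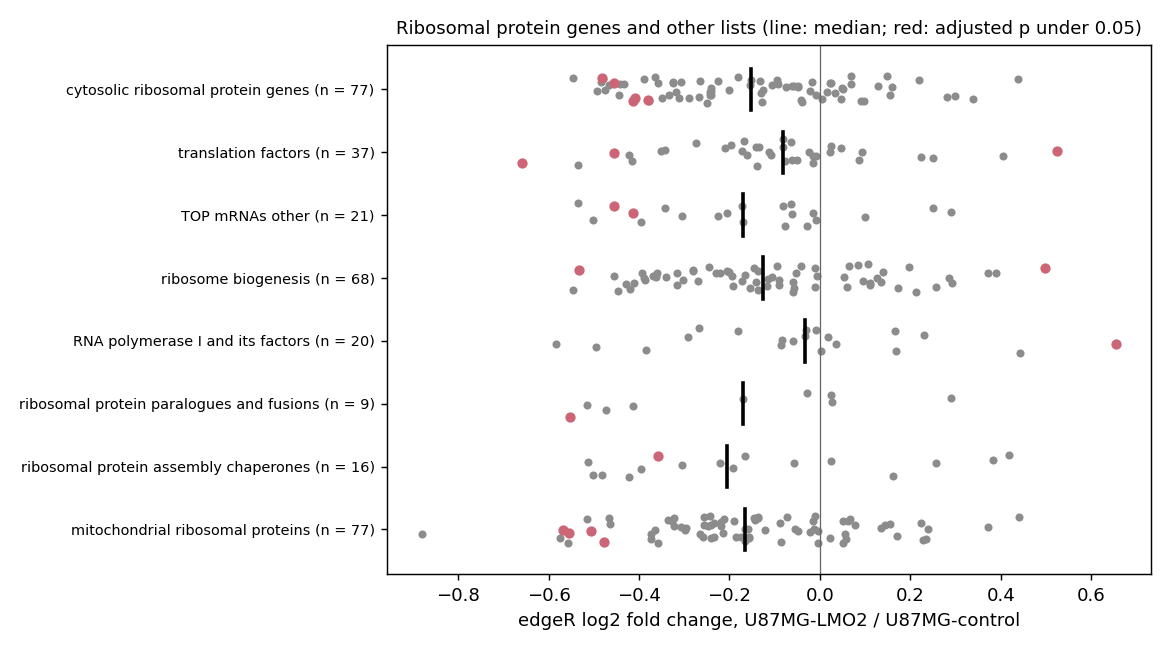
EdgeR log2 fold change of each tested gene of the ribosomal protein family and of 7 other lists, with a line at the median of each list and red points for an adjusted p under 0.05. All 8 medians lie below 0, from -0.03 for RNA polymerase I and its factors to -0.21 for the chaperones of ribosomal proteins.

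Other genes of the translation pathway were read against the same background of 2.75% of all genes lower and 4.72% higher. At an unadjusted p under 0.05 (edgeR), the background was 11.9% lower and 13.8% higher. Of 21 other mRNAs with a TOP tract, 0 were called higher and 2 (9.52%) lower (median log2 fold change -0.17). At an unadjusted p under 0.05, 0 were higher and 5 (23.8%) lower. TPT1, the tumour protein whose mRNA carries a classical TOP tract, was at 1327, 1198 and 1230 CPM against 907.4, 923.9 and 988.0 CPM (-0.41, edgeR adjusted p = 0.0361), and EIF4B, a helper of the EIF4A helicase, at 570.9, 475.1 and 492.1 CPM against 365.7, 350.6 and 404.8 CPM (-0.46, edgeR adjusted p = 0.0427). Both genes fell without overlap.

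Of 37 translation factors, which include EIF4B, 1 was higher and 2 (5.41%) lower (median -0.08). Of the 37, 6 (16.2%) were lower and 2 (5.41%) higher at an unadjusted p under 0.05 (edgeR), against 11.9% and 13.8% of all genes. EIF4A2, one of the helicases that unwind mRNA leaders, fell by 0.66 on the log2 scale from 189, 173 and 192 CPM to 108, 117 and 126 CPM (edgeR adjusted p = 0.0112). EIF3C, a subunit of the initiation factor that holds the 40S subunit, rose by 0.53 from 53.4, 55.1 and 55.9 CPM to 74.5, 72.3 and 90.0 CPM (edgeR adjusted p = 0.0291), with counts that were not whole. Neither gene overlapped between the groups.

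The paralogues and fusion genes of the family had 9 of 11 members tested, with 0 higher and 1 (11.1%) lower (median -0.17). At an unadjusted p under 0.05 they had 0 higher and 4 (44.4%) lower. RPL22L1, the paralogue of RPL22, was at 51.1, 48.4 and 47.8 CPM against 34.0, 36.8 and 29.6 CPM, without overlap (-0.55, edgeR adjusted p = 0.0279). Among 16 chaperones and importers of ribosomal proteins, IPO5, a nuclear import receptor, fell by 0.36 on the log2 scale (edgeR adjusted p = 0.0488), and 0 were called higher. At an unadjusted p under 0.05, 5 of the 16 (31.25%) were lower and 1 (6.25%) was higher. Among 68 ribosome biogenesis genes (median -0.13), NOL6, a protein of the small subunit precursor, rose by 0.50 (edgeR adjusted p = 0.0394) and WDR36, of the same particle, fell by 0.53 (edgeR adjusted p = 0.0482). Of the 68, 10 (14.7%) were lower and 4 (5.88%) higher at an unadjusted p under 0.05. Among 20 genes of RNA polymerase I and its factors (median -0.03), TAF1C, a subunit of the selectivity factor SL1, rose by 0.65 (edgeR adjusted p = 0.0155) and 0 fell (3 at an unadjusted p under 0.05).

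The ribosome of the mitochondrion is built from separate genes. The list used here held 77 genes, chosen by an MRPL or MRPS symbol only, and other genes of this ribosome were not sought. Of the 77, 0 were called higher and 4 (5.19%) lower, against 4.72% and 2.75% of all genes. Their median log2 fold change was -0.17, and 59 (76.6%) were below 0, against 51.1%. At an unadjusted p under 0.05, 3 (3.90%) were higher and 15 (19.5%) lower, against 13.8% and 11.9%. The called genes were MRPL24 (-0.56), MRPS14 (-0.57), MRPL18 (-0.51) and MRPL36 (-0.48). The mitochondrial genes stood lowest in U87MG-LMO2 replicate 3, where their median was -0.37 from the control mean, against -0.14 in replicate 1 and -0.01 in replicate 2. Without that library their median log2 fold change was -0.06, and that of the cytosolic genes was -0.13, a difference that was not tested.

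The reads of ribosomal RNA, the other part of the ribosome, depend on how much of it library preparation removed. RNA28SN5, a gene for 28S rRNA, was at 171, 200.3 and 132 CPM in U87MG-control and at 34.5, 54.3 and 30.3 CPM in U87MG-LMO2 (log2 fold change -2.08, SE 0.24, edgeR adjusted p = 0.00410), whereas RNA18SN5 (-0.24, edgeR adjusted p = 0.642) and RNA45SN5 (0.27, edgeR adjusted p = 0.362) overlapped between the groups. The 3 genes together took between 0.0712% and 0.129% of the counts in each library. Their counts were not whole, and how reads of near-identical copies were split is uncertain, and the part of rRNA removal in these values was not tested.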

How the data were processed

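Total RNA of U87MG was sequenced by a service company in 3 U87MG-control and 3 U87MG-LMO2 libraries, and the groups were taken from the sample titles. The labels name no batch. The authors deposited expected counts, which are estimated numbers of reads per gene without normalization, not always whole, in a layout like that of RSEM. The deposited FPKM values were corrected by the authors for gene length and library size. The deposited gene lengths were used as given. The submitters' processing notes name Bowtie2, BWA and GRCh38.p12 without roles, and the counting program is not given in the sources used here. The authors' table of the comparison also holds log2 ratios and probabilities, which were not used. Its group means differed by over 0.001 FPKM from the U87MG-LMO2 library tables for 134 genes, because the table of replicate 3 is damaged (3 unreadable lines). These genes, with 0.35% of the control counts and no ribosomal protein gene among them, were left out, which left 27125 genes. Genes with no line were taken as 0.

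Expected counts were rounded and tested with edgeR 4.0.16 in R 4.3.3 (filterByExpr, TMM factors, quasi-likelihood F test, 2-sided, Benjamini-Hochberg over 16092 genes, threshold 0.05). CPM are counts relative to the TMM-scaled total, and counts were called whole within 0.005. Total counts of 11428432 to 17892955 per library set the counting error. The standard errors and p-values also include the estimated spread between libraries. DESeq2 1.42.0 and limma 3.58.1 gave alternatives, the latter on log2(FPKM + 1), on log2(FPKM + 0.1), and on log2 CPM after a lowess trend (span 0.3) on gene length or GC content was removed per library. The GC content of a gene is the mean over its GENCODE v29 transcripts, found for 89.9% of tested genes and all 77 ribosomal protein genes. The functions were tested on simulated data. Leave-one-out fits that left 2 libraries in a group pooled the spread over both groups.

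Symbols came from the authors' table, and 77 of 77 matched RefSeq (GRCh38.p14) by gene ID. The text names every called member, the 4 highest and 4 lowest by log2 fold change, the 4 highest and 3 lowest by FPKM, the 3 with the widest spread, members fixed for their roles, LMO2, and the called genes of the other lists (at most 6 each). RPL14, RPL39, RPL36A-HNRNPH2, the rRNA genes and the genes given as called in an alternative were named after their values were seen. The genes and all lists were chosen with earlier results of these data known. Of the 77 genes, 1 is counted in all totals but its own values are not reported here. The GC correction and limma without a trend were chosen after seeing the data. Samples with the same replicate number did not deviate together and were not treated as pairs.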

Additional observations from a re-analysis of the deposited data

How the results depend on the processing

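The median log2 fold change of the ribosomal protein genes stayed below 0 in all 18 alternatives, while the number called depended on the setting. Over all genes, 760 were higher and 443 lower. Leaving out 1 library gave 102 to 1307 higher and 42 to 1102 lower genes over all, 0 to 1 higher and 0 to 14 lower ribosomal protein genes with a median of -0.24 to -0.13, and 0 to 5 higher and 0 to 20 lower genes of the other lists. Their most numerous calls came without U87MG-LMO2 replicate 3, and the cause was not tested. A replicate block in the model gave 387 higher and 189 lower genes over all, the ribosomal protein genes had 0 lower, and the other lists had 1 higher and 2 lower. The replicate numbers did not pair the samples, since the correlations of deviations within a number were -0.117, -0.00342 and -0.0407. DESeq2 called 11 ribosomal protein genes lower and 1 higher, and 19 genes of the other lists lower. Library totals without factors, no filter on low counts and removal of the length trend each called 1 higher (RPLP1), and limma on FPKM called 2 lower with either pseudocount. GC correction, chosen after seeing the data, left 501 genes higher over all, 3 ribosomal protein genes lower and 4 genes of the other lists lower, with 14458 genes tested, and limma on log2 CPM with no trend removed called the same 5 genes as edgeR. The summed share was 11.34% and 10.79% of FPKM for U87MG-control and U87MG-LMO2 and 4.83% and 4.44% without the 10 most abundant other genes. Among the named genes, 641 of 792 comparisons with an alternative kept direction and side of the threshold, 132 lost it, 9 gained it and 10 changed sign. Sign changes came from leaving out 1 library for RPS15 (-0.25 to 0.14), RPL22 (-0.44 to 0.0087), RPS23 (-0.26 to 0.025), RPL24 (-0.40 to 0.085), RPLP0 (-0.13 to 0.062) and RPL13A (-0.036 to 0.14), and from GC correction for RPL13A (-0.056). None of these genes passed the edgeR test with all 6 libraries. The lowest count of a ribosomal protein gene in a library was 257, and each group has 3 libraries.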
